A study of Drosophila melanogaster with 2 samples.

Results

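Distal intronic Wdn peaks are peaks called for the zinc finger protein Wdn that lay inside introns and far from any annotated transcript start. Members were the peaks of the main list whose summit lay more than 2000 bp from the nearest start, inside a gene body and in no annotated exon. They were 553 of 3254 listed peaks, and 6 peaks lay on sequences other than the named chromosomes and were not classed. The main list was the authors' list thresholded for both replicates together by the irreproducible discovery rate (IDR), which scores how reproducibly a peak ranks. The chromatin came from whole Drosophila melanogaster embryos aged 0 to 24 h of a transgenic wdn-GFP strain, which makes Wdn fused to eGFP, and an antibody against GFP was used for the immunoprecipitation (ChIP-seq). Fragments were sonicated to a size range of 200 to 800. The samples were 2 biological replicates of 1 group, and no control library was analysed here. An embryo of this age mixes many cell types, so that a peak cannot be assigned to any of them.

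Wdn, the product of wings down, carries zinc fingers of the C2H2 type, a fold that commonly reads DNA sequence. Introns of flies, above all the long first introns of developmental genes, hold many enhancers, which act on promoters from a distance. A summit in an intron gives the place of the fusion protein, or of DNA crosslinked to it, and does not say which gene responds.

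The windows of 100 bp to each side of the summit of 5 of the strongest 7 members are shown first, because the summits of distal intronic peaks were rich in A and T. They are plus-strand sequence of the dm6 build, 5′ to 3′, with every unbroken run of at least 7 A or T bases in capitals. The genes are Tlk, which encodes a kinase of chromatin assembly, CG32486, Raf, the kinase that relays growth factor receptor signals to the MAP kinases, and Dys, the dystrophin gene. The last line is a contrast from CG8745.
Tlk intron, chrX:3742125-3742325: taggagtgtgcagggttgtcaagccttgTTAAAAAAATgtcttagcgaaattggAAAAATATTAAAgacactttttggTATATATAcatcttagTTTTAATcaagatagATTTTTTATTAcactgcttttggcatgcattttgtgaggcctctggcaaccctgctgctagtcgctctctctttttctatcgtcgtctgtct
CG32486 intron, chr3L:3060693-3060893: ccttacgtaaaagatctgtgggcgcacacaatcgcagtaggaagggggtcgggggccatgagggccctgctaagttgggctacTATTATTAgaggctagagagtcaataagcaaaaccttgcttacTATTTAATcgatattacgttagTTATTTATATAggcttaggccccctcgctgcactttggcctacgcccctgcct
Raf intron, chrX:2297604-2297804: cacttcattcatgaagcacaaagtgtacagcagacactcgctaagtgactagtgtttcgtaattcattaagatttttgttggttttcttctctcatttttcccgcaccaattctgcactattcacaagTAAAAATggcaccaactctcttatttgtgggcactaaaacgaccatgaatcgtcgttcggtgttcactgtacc
Dys intron, chr3R:19499152-19499352: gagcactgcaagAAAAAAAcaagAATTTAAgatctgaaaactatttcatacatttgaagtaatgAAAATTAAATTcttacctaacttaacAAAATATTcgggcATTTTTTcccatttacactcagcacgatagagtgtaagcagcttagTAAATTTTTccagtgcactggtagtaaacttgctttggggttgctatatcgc
Raf intron, chrX:2300617-2300817: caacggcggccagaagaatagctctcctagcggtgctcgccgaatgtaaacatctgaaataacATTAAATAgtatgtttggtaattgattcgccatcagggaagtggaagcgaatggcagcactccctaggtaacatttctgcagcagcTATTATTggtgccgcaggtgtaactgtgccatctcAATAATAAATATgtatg
CG8745 intron, chr3L:13862499-13862699: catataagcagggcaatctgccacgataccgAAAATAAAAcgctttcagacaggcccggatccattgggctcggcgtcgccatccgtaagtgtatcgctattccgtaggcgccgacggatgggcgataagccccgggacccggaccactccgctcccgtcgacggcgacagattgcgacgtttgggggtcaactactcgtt
The Tlk window held 5 such runs, the longest of 12 bases, and the Dys window held 6. The first Raf window held 1 run, so that the runs were unevenly spread even among strong peaks. CG8745, whose peak had a signal value of 222, was the exception among the 20 strongest members. The DNA within 50 bp of its summit held 33.7% A and T and its flanks 55.0%, whereas the summits of the other 19 were richer in A and T than their flanks. Over all members, 471 of 553 (85.2%) held a run of at least 7 A or T bases within 50 bp of the summit, against 62.3% of 35954 candidates. A candidate is a peak that was ranked by the authors but not listed, here one of the distal intronic class.

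A second set shows the CACTGTG core, a sequence that earlier results on all Wdn peaks had brought up and that is therefore no independent evidence here. The 3 windows below, again plus-strand dm6 sequence 5′ to 3′, have the core in capitals, read as CACAGTG where it lay on the minus strand. They come from rdx, which encodes a ubiquitin ligase adaptor of Hedgehog signalling, from wts, the kinase gene of the Hippo pathway, and from the tetraspanin gene Tsp66E.
rdx intron, chr3R:14012589-14012789: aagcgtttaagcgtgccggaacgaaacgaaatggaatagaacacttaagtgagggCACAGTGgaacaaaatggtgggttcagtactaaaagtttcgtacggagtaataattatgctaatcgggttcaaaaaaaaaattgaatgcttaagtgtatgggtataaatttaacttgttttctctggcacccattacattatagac
wts intron, chr3R:30796837-30797037: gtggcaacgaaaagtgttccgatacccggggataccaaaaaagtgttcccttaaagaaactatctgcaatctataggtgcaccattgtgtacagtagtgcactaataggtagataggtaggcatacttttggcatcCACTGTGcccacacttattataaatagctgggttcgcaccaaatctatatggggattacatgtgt
Tsp66E intron, chr3L:8920873-8921073: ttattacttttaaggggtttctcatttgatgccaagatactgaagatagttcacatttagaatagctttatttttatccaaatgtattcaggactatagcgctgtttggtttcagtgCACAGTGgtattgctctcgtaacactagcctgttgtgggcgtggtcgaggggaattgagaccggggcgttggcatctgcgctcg
The core started 45 bp before the summit in rdx, 36 bp after it in wts and 17 bp after it in Tsp66E. The peak signals were 126, 121 and 91.9. None of these 3 peaks was among the 20 strongest.

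Only a small part of the members carried the core. It was found within 50 bp of the summit in 19 of 553 members (3.44%, 95% exact interval 2.08 to 5.31%) and in 501 candidates (1.39%), an odds ratio of 2.52 (p = 0.000432 by a two-sided Fisher's exact test, and 0.00281 when adjusted over 13 motifs). Against the members' own flanks, where 1.45% of windows held it, the odds ratio was 2.42 (p = 0.0106 by Fisher's exact test). The call was lost in each replicate's own list, with an odds ratio of 1.13 in replicate 1 (p = 0.661 by Fisher's exact test) and of 1.92 in replicate 2 (p = 0.104 by Fisher's exact test). Here and in what follows, p-values are taken over peaks or over genes; neither are replicates, and both can be neighbours. The intervals cover counting error only.

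The main list took 2.46% of all 132052 ranked peaks and 1.51% of the 36507 ranked distal intronic ones. Distal intronic peaks were 17.0% (15.7 to 18.4%) of the 3248 placed listed peaks, against 28.3% of 127248 placed candidates (odds ratio 0.521, p = 2.67e-49 by Fisher's exact test). The direction depended on what they were set against, since 1705 listed peaks lay within 500 bp of a start and are called promoter peaks. Among peaks outside promoters the distal intronic share was 35.8% against 33.5% of candidates (odds ratio 1.11, p = 0.0505 by Fisher's exact test). Among summits more than 2000 bp from a start it was 71.0%, against a candidate share with an interval of 49.7 to 50.4% (odds ratio 2.44, p = 3.63e-32 by Fisher's exact test), and with exons left out as well it was 74.4% against 63.0% (odds ratio 1.71, p = 4.93e-11 by Fisher's exact test). Far from starts, then, listed peaks lay in introns more often than ranked peaks did.

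The strongest distal intronic peak lay in Tlk on chromosome X, 2328 bp from a start. Its signal value, given by the authors' peak caller, was 657 in the main list, 338 in replicate 1 and 323 in replicate 2. CG32486 on 3L followed with 489.8, and with 253 and 239 in the replicates. CG12769 on 2R had 447, and 226 in each replicate. These 3 peaks lay in first introns and had similar values in both replicates. Replicate values come from separate lists whose common scale is not known.

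Raf, on chromosome X, held 2 of the 7 strongest members in an intron of 43637 bp. The first, 2238 bp from a start, had a signal of 362, with 191 and 167 in replicates 1 and 2. The second, 5251 bp from a start, had 289, with 137 and 148. The first peak was the stronger in both replicates; replicate 1 had the higher value at the first peak and replicate 2 at the second. Dys, the gene of a protein that links the actin cytoskeleton of muscle to the cell membrane, had a peak of signal 321 on 3R, with 170.3 and 147.

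Several strong peaks lay in genes of gene regulation. The intron peak of Hr3, a nuclear receptor of the ecdysone response, had a signal of 301, with 168 and 132 in the replicates; it also lay within CG12912 and CG46321. Gug, which encodes the corepressor Atrophin, had 285, with 144 and 139. sbb, a transcriptional corepressor gene, had 259, with 138 and 124. A peak of signal 247 lay in both Su(Tpl), an elongation factor gene, and Mi-2, the ATPase of the NuRD chromatin remodelling complex, with 130.4 and 118. simj, which encodes another NuRD subunit, held 2 peaks among the strongest 20, of 209.7 and 207, with 102 and 109 in replicate 2. apt, a transcription factor gene, had 216, and here replicate 2 was the higher, with 90.4 and 123.

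Kinase genes were present as well. Nak, whose product is a kinase of endocytosis, had a peak of signal 276, with 121 and 159 in replicates 1 and 2, and mnb, a kinase gene required for brain growth, had 254, with 119 and 137. Lrch had 281, with 155 and 127. CG13894 had 257, CG34417 had 251 and CG9328 had 219. All 20 of these peaks were in the own lists of both replicates, and 16 of them lay in a first intron. They lay in 21 host genes.

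Over all members the signal values had quartiles of 56.7 and 103 around a median of 71.5, and they ranged from 2.72 to 657. There were 153 members of at least 100 and 21 of at least 200. At the low end, 16 members had a value under 20. All 16 overlapped a stronger listed peak, with the nearest other summit 199 to 221 bp away, and the lowest value of a member that overlapped no stronger peak was 38.3. In all, 19 members overlapped a stronger listed peak, which leaves 534 separate sites.

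Distal intronic peaks were weaker than promoter peaks. The median signal was 71.5, against 82.5 at promoters, 76.4 at 523 start-proximal intronic peaks (more than 500 bp and up to 2000 bp from a start) and 67.3 at 190 intergenic peaks more than 2000 bp from a start. Above the median of the main list, 76.6, lay 42.9% (38.7 to 47.1%) of distal intronic peaks and 56.1% of promoter peaks (odds ratio 0.588, p = 2.00e-07 by Fisher's exact test, adjusted over 3 classes). The share was 49.7% for start-proximal intronic peaks (odds ratio 0.759, 95% interval 0.592 to 0.972, adjusted p = 0.0414 by Fisher's exact test). That call was lost when the weaker of overlapping peaks were left out (odds ratio 0.780, adjusted p = 0.0704 by Fisher's exact test). For distal intergenic peaks the share was 39.5%, and the odds ratio of 1.15 had a 95% interval of 0.811 to 1.64 (adjusted p = 0.444 by Fisher's exact test). The order of medians was the same within each replicate, at 39.1 and 35.4 for the members, 44.1 and 42.8 for promoter peaks, 43.0 and 38.2 for start-proximal intronic peaks, and 37.8 and 33.4 for distal intergenic peaks.

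**Figure D1:**
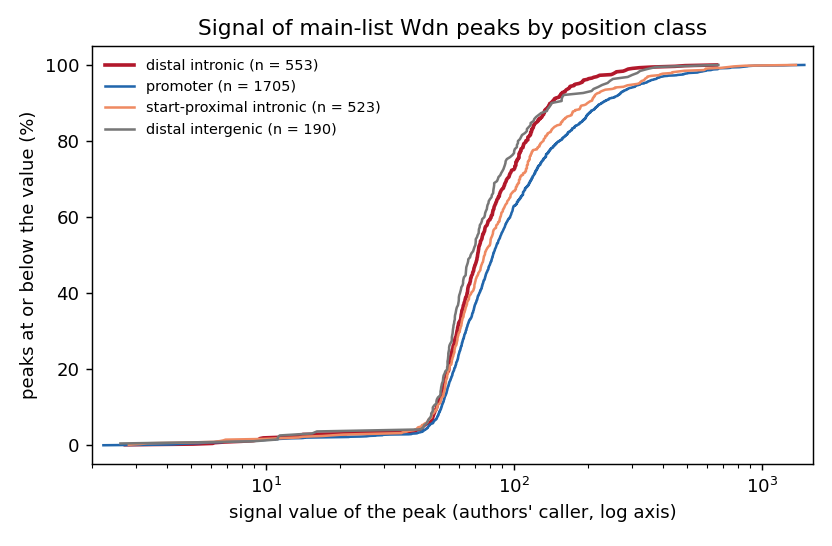
Cumulative share of main-list peaks (vertical axis, %) at or below each signal value (horizontal log axis, the authors' caller's value) for 4 position classes. The distal intronic line, with a median of 71.5, runs between distal intergenic peaks (67.3) and start-proximal intronic peaks (76.4), and promoter peaks (82.5) lie farthest to the right.

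Fewer distal intronic than promoter peaks were listed in both replicates on their own. Of all main-list peaks 39.1% overlapped a peak of both replicates' own lists, and of the distal intronic ones 178 did (32.2%, 28.3 to 36.3%). A further 116 overlapped a peak listed in replicate 1 only, 72 in replicate 2 only and 187 (33.8%) in neither. The median main-list signal of these sets was 120.0, 71.8, 72.9 and 55.0 in that order, so that members listed in neither replicate were the weak ones. The share in both lists was 44.3% for promoter peaks (odds ratio 0.596, adjusted p = 1.16e-06 by Fisher's exact test) and 39.6% for start-proximal intronic peaks (odds ratio 0.725, adjusted p = 0.0196 by Fisher's exact test). Distal intergenic peaks had 28.4%, with an odds ratio of 1.20 and a 95% interval of 0.822 to 1.75 (adjusted p = 0.365 by Fisher's exact test). Among peaks of IDR 0.001 or lower neither difference passed, at odds ratios of 0.728 against promoter peaks (adjusted p = 0.132 by Fisher's exact test) and 0.715 against start-proximal intronic peaks (adjusted p = 0.142 by Fisher's exact test).

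The ranked lists, which reach far below the threshold, held nearly every member in both replicates: 552 members overlapped a ranked peak in replicate 1, 543 in replicate 2 and 542 in both. Over these 542 the log2 signal of the replicates had a Pearson correlation of 0.649 and a Spearman correlation of 0.542, as a description over peaks of the same libraries chosen for ranking alike. Replicate 1 was higher at 332 members and replicate 2 at 210, with a median log2 ratio of 0.13, and 56 members were over 2-fold apart. These values have no known common scale, so that the differences cannot be read as differences in binding. The replicates' own lists held 310 and 264 distal intronic peaks, 287 ± 32.5 (SD, n = 2), and the list that the authors named conservative held 477 of 2722 peaks.

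**Figure D2:**
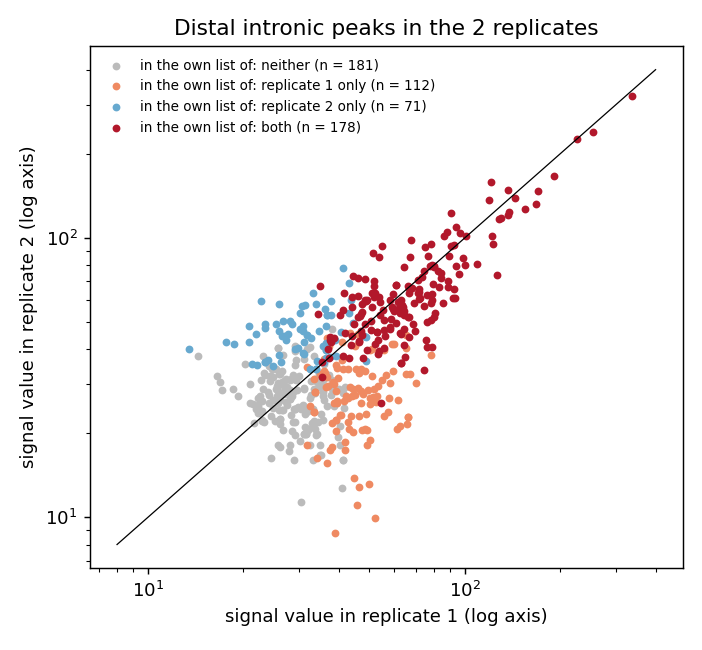
Signal value of distal intronic peaks in replicate 1 (horizontal log axis) against replicate 2 (vertical log axis), 1 point per member ranked in both, coloured by the replicates' own lists that hold it; the line marks equal values. The 178 members of both lists reach from the middle of the cloud to Tlk at 338 and 323, and at 56 of the 542 points the replicates are over 2-fold apart.

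Members lay closer to starts than the other ranked peaks of distal introns. Their distance to the nearest start had a median of 5057 bp (quartiles 3193 and 8674) against 7071 bp for candidates. Within 4000 bp lay 217 members (39.2%, candidates 26.1%), and beyond 10000 bp lay 116 (21.0%, candidates 35.8%). Of ranked distal intronic peaks, 2.33% were listed between 2000 and 3000 bp and 0.702% beyond 20000 bp, which compares with 1.51% overall. The farthest member lay 55212 bp from a start. Just inside the limit of 2000 bp were peaks in CG43658 (2008 bp, signal 69.2), snu (2018 bp) and hiw (2022 bp, 136), and just outside it peaks in ttv (2000 bp, 54.8), lncRNA:CR44320 (1990 bp, 139) and Rtnl1 (1983 bp, 53.8).

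**Figure D3:**
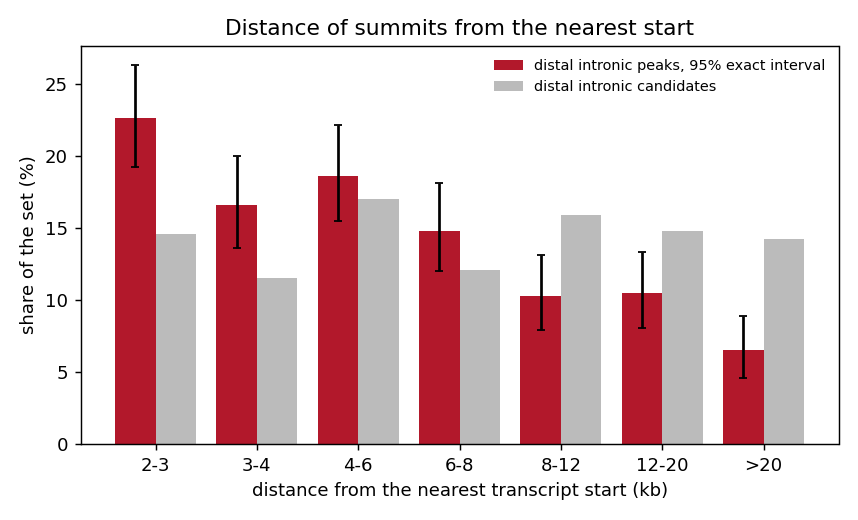
Share of distal intronic peaks (red, n = 553, bars with 95% exact intervals) and of distal intronic candidates (grey) in each range of distance from the nearest annotated start, in kb. The 2 to 3 kb range holds 22.6% of peaks and 14.6% of candidates, and the range over 20 kb holds 6.51% and 14.2%.

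Members lay in first introns more often than candidates did. The summit lay in the first intron of at least 1 annotated transcript in 337 members (60.9%, 56.7 to 65.0%), against 42.2% of candidates (odds ratio 2.14, p = 1.80e-18 by Fisher's exact test). Counting only summits in the first intron of every transcript that holds them in an intron, there were 179 (32.4%, 28.5 to 36.4%) against 24.2% (p = 1.65e-05 by Fisher's exact test). First introns lie close to starts, so shares by the looser definition, but not the stricter one, were also taken within distance ranges. They were 71.4% against 55.6% from 2000 to 4000 bp (odds ratio 2.00, p = 3.01e-06 by Fisher's exact test), 59.5% against 47.6% from 4000 to 8000 bp (1.61, p = 0.00175 by Fisher's exact test) and 47.7% against 30.9% beyond 8000 bp (2.04, p = 1.83e-05 by Fisher's exact test). The other members were in second introns at the lowest in 138 cases and in later introns in 78. The introns were long, with a median of 11784 bp among members and 13858 bp among candidates. The nearest start belonged to a host gene in 358 members (64.7%), a share that was not taken for candidates. No member summit lay in an annotated transposable element, which with 0 of 553 allows a share of up to 0.665% (upper bound of the exact 95% interval), against 0.876% of candidates (p = 0.0171 by Fisher's exact test).

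Members were found on 5 chromosome arms. Chromosome X held 139 of them (25.1%, candidates 20.5%; odds ratio 1.30, p = 0.0652 by Fisher's exact test, adjusted over 7 chromosomes) and 3R held 123 (22.2%, candidates 26.7%; odds ratio 0.786, adjusted p = 0.0695 by Fisher's exact test). There were 99 on 2L, 95 on 2R and 97 on 3L, and 0 on chromosomes 4 and Y, which had few candidates. In the main list 0 of 7 chromosomes passed the adjusted Fisher's exact test, and X and 3R had an unadjusted p under 0.05 (0.00932 and 0.0199). Both passed in each replicate's own list, where the odds ratios were 1.56 and 2.03 for X and 0.683 and 0.623 for 3R, and both also passed among peaks of IDR 0.001 or lower (odds ratios of 1.65 and 0.608).

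The 553 peaks lay in 380 genes, 370 of them protein-coding, out of 2542 genes with a ranked distal intronic peak (14.9%). There were 252 genes with 1 such peak, 82 with 2 and 46 with 3 or more, and 40 peaks lay in several genes at once. Host genes were long, with a median of 31707 bp against 14028 bp for genes that held candidates only. A gene with more ranked peaks had more chances to hold a listed one, and the median host had 20.5 ranked peaks. Another listed summit, of any position class, lay within 5000 bp of 287 members (51.9%) and within 1000 bp of 102 (18.4%). The 102 include the 16 members with a signal under 20, which overlapped a stronger listed peak. The same shares were not taken for candidates or other classes, so that no clustering can be read from them.

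sbb held the most distal intronic peaks, 8 of its 62 ranked ones. The strongest 4 had signals of 259, 189, 153 and 122 and the weakest 3 of 61.7, 57.7 and 9.43, all 8 lay in the first intron, and the weakest overlapped the peak of 57.7. A promoter peak of signal 233 lay at −131 bp from its 5′ end, upstream of the gene. The strongest 3 lay at 18793, 20127 and 23953 bp downstream of its 5′ end. sbb thus had several strong intronic peaks besides the peak at its start.

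kirre, which encodes an adhesion protein of muscle founder cells, held 7 of 318 ranked peaks, spread from 46364 to 368666 bp of a gene of 394149 bp. The first, which also lay in the gene CG32795, had a signal of 167 and the others lay between 48.9 and 100.2. Listed peaks outside the distal intronic class lay in kirre at 2892, 3846 and 179570 bp, with signals of 212, 146 and 107. lncRNA:CR44999, a noncoding RNA gene, also held 7, of 67 ranked, with signals from 53.0 to 109. Of these same 7 peaks, 6 also lay in the overlapping gene CG12535, the strongest and the weakest among them. The remaining peak, of signal 93.3, also lay in the overlapping gene Myc. Hr4, another nuclear receptor gene of the ecdysone response, held 6 of 45, with 191, 144 and 114 at the strongest 3 and 73.4 at the weakest. Snoo, the gene of a Ski family corepressor, held 6 of 100, all in first introns, with 161 at the highest and 48.3 at the lowest. None of kirre, lncRNA:CR44999, Hr4 and Snoo had a promoter peak.

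**Figure D4:**
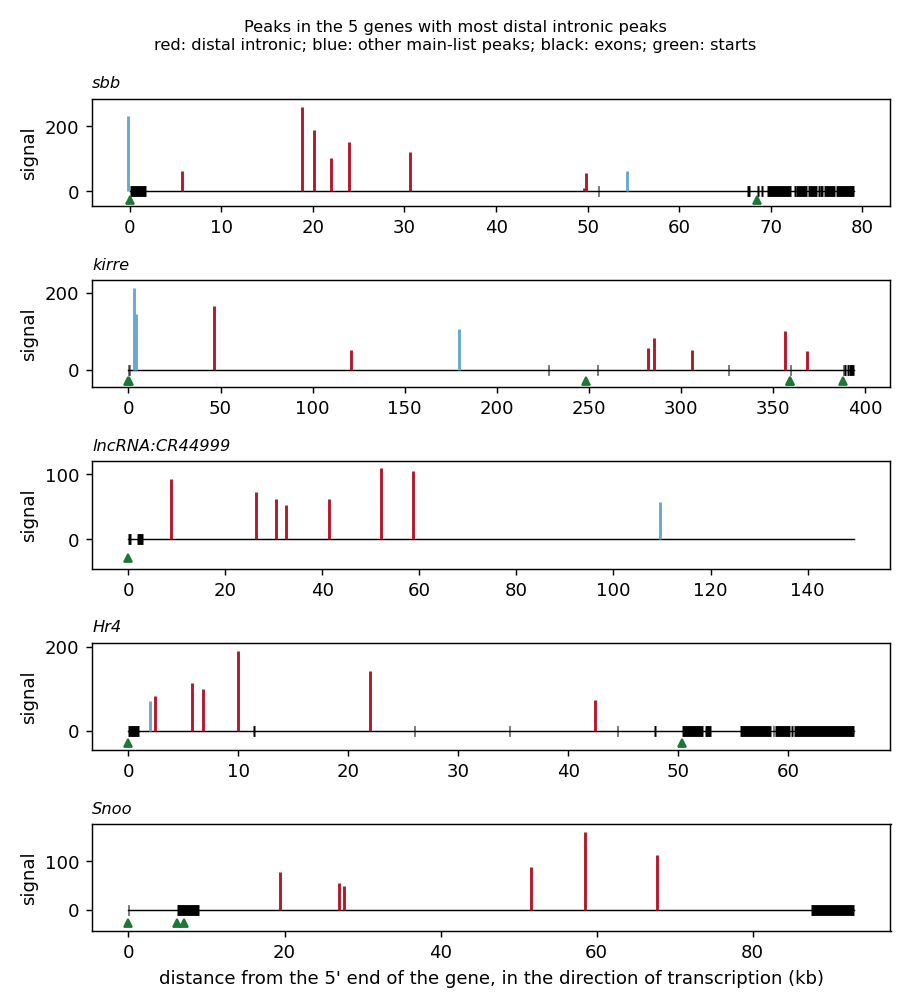
Listed peaks in the 5 genes with most distal intronic peaks, as lines of height equal to the signal value (vertical axis) by distance from the 5′ end of the gene in kb; red lines are distal intronic, blue lines other listed peaks, black boxes exons and green triangles transcript starts. sbb has 8 red lines with the highest at 259, kirre 7 lines spread over most of its length, and Hr4 4 of its 6 within the first 10 kb.

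Host genes carried a promoter peak more often than genes with candidates only, in 122 of 380 (32.1%, 27.4 to 37.1%) against 399 of 2162 (18.5%), an odds ratio of 2.09 (p = 7.78e-09 by Fisher's exact test). The difference was uneven over genes with different numbers of ranked peaks. It was 44.4% against 21.2% with 1 to 3 ranked peaks (odds ratio 2.97, p = 0.00781 by Fisher's exact test), 20.9% against 19.2% with 4 to 10 (1.11, p = 0.770 by Fisher's exact test) and 34.5% against 13.8% with 11 or more (3.28, p = 6.64e-12 by Fisher's exact test). Whether the odds ratios differed from each other was not tested. A promoter peak at any annotated start of a gene counted, and the number of starts per gene was not held equal. Among genes with at least 10 ranked peaks, the listed share was highest in CG9328 and in CHES-1-like, a forkhead factor gene, each with 4 of 10. CHES-1-like had a promoter peak and CG9328 did not.

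Host genes were grouped by lists of gene functions, and each count is a description beside the 14.9% of genes and 1.51% of ranked peaks over all genes. Of growth factor and morphogen signalling genes, 19 of 51 with a ranked distal intronic peak held a listed one (37.3%; 2.69% of 1079 ranked peaks). The highest signals were 145 in aos, the secreted inhibitor of the EGF receptor, 143 in mam, the Notch coactivator, and 137 in shn, the zinc finger cofactor of Dpp signalling, which held 5 peaks. A list made mostly of BTB and other zinc finger regulators had 11 hosts of 28 (39.3%; 2.26% of 884). The 11 include pnt, an ETS factor gene, and crp, a helix-loop-helix factor gene, which are of neither class. The list was led by mamo (118), luna (109.6) and ush (103), the last, a GATA cofactor gene, with 5 peaks. Of nuclear receptor and ecdysone response genes 7 of 21 were hosts (33.3%; 2.60% of 576), led by Hr3 (301), Hr4 (191) and Eip75B (97.6). EcR, the ecdysone receptor gene itself, held 1 peak of 59.8. Chromatin genes had 6 of 18 (33.3%) and the highest share of ranked peaks among the lists given here, 7 of 117 (5.98%), led by Mi-2 (247), the deacetylase gene HDAC4 (125) and trx (117), a histone methyltransferase gene.

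Other groups were nearer to the background in their share of genes. Of neural and muscle fate regulators 6 of 27 were hosts (22.2%; 1.38% of 509), with the Notch receptor gene N at 126, Mef2 at 118 and grh at 107. Homeotic and segmentation regulators had 4 of 19 (21.1%; 1.01% of 595), with hth, a partner of Hox proteins, at 162, Antp at 98.1 and the Wnt inhibitor gene nkd at 67.4. Axon guidance and adhesion genes had 14 of 63 (22.2%), but their 30 peaks were 1.03% of 2926 ranked ones, below the share over all genes; kirre (167), side (148) and ed (106) led them.

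The remaining lists given here had low shares of ranked peaks. Ion channel and synapse genes had the lowest, 3 of 51 genes (5.88%) and 4 of 902 ranked peaks (0.443%), in the potassium channel gene Shab (90.9), Ih (71.6) and dlg1 (49.1). RNA-binding and splicing genes had 6 of 30 (0.588% of 1531), with shep at 109, how at 107 and fne at 83.2. Cyclic nucleotide and G protein signalling genes had 6 of 42 (14.3%; 0.861% of 929), with 139 in Pka-C1, the catalytic subunit gene of protein kinase A, 83.9 in Pde11 and 71.9 in the phosphodiesterase gene dnc. Muscle structure genes had 3 of 20 (0.929% of 323), in Dys (321), Zasp52 (76.8) and Tm1 (47.5). The median over hosts of the highest signal ran from 65.2 in the cyclic nucleotide list to 96.6 in the chromatin list, with 82.0 over all 380 hosts. Of 26 marker genes of 6 embryonic tissues, 19 had a ranked distal intronic peak and 4 of these were hosts (21.1%, against 14.9% of all such genes): ush with 5 peaks, Mef2 with 2, and Tm1 and grh with 1 each. The markers of neurons and glia had 31 ranked peaks together and 0 members, too few ranked peaks to read an absence from at a listed share of 1.51%.

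Summits of distal intronic peaks were richer in A and T than the DNA around them. The DNA within 50 bp of the summit held 64.9% A and T (SD 9.08, n = 553 peaks) and the flanks 500 bp to each side 59.4%, a rise of 5.51 ± 0.495 percentage points (SE over peaks). At candidates the summit was poorer than its flanks, by −2.81 ± 0.0580 points. A rise was seen in 388 members (70.2%, 66.2 to 74.0%) and in 38.3% of candidates (odds ratio 3.79, p = 3.28e-51 by Fisher's exact test). The rise was larger at strong members: the strongest 100 had 8.81 ± 0.973 points, the weakest 100 had 1.11 ± 1.30. The weakest 100 include the 16 members with a signal under 20, which overlapped a stronger listed peak, and the contrast was not repeated without them. Members of the replicates' own lists had 6.38 ± 0.647 in replicate 1 and 8.17 ± 0.613 in replicate 2. Listed peaks of the other classes had a rise too, of 8.13 ± 0.359 points at promoter peaks, 7.30 ± 0.527 at start-proximal intronic peaks and 4.87 ± 0.955 at distal intergenic peaks.

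**Figure D5:**
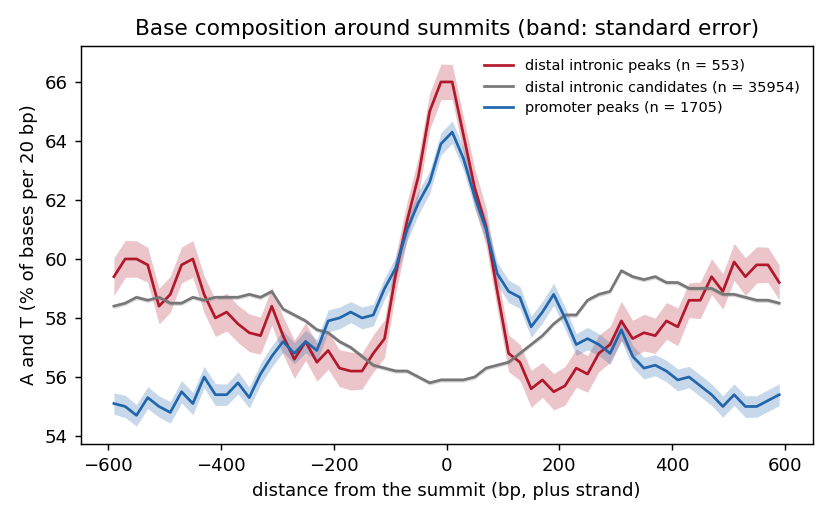
Mean share of A and T bases (vertical axis, %, per 20 bp) by distance from the summit (horizontal axis, bp on the plus strand) for distal intronic peaks (red), distal intronic candidates (grey) and promoter peaks (blue); bands are the standard error over peaks. Distal intronic peaks reach 66.0% at the summit and 56.2% at 150 bp before it, and the line of candidates has its lowest values near the summit.

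Of 13 short motifs searched, 3 were more frequent at members than at candidates, and CACTGTG was one of these. The motif TATAAA, the letters of a TATA box, was within 50 bp of the summit, on either strand, in 125 members (22.6%) and 8.65% of candidates (odds ratio 3.08, p = 1.47e-21 by Fisher's exact test, adjusted over 13 motifs). TAATTA, which homeodomain proteins bind, was in 9.95% against 6.21% (odds ratio 1.67, adjusted p = 0.00319 by Fisher's exact test). GAGAG, the sequence of GAGA factor, was in 9.22% against 12.4% (odds ratio 0.717, adjusted p = 0.0734 by Fisher's exact test). When peaks and candidates were limited to the middle range of A and T content of the members (307 members), TATAAA alone passed, in 22.5% against 15.2% (odds ratio 1.62, adjusted p = 0.0124 by Fisher's exact test). CACTGTG had an odds ratio of 2.12 there (unadjusted p = 0.0623 and adjusted p = 0.405 by Fisher's exact test) and TAATTA 0.966. A and T content was not matched further within this range, and over all summits it was 55.9% at candidates and 64.9% at members. The other 10 motifs, among them TATCGATA (DRE), CAGGTAG (zld), CACGTG (E-box), TGACTCA (AP-1) and GCCATTT (pho), did not pass in either comparison.

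Words of 7 bases chosen on X, 2L and 2R and tested on the 220 members of 3L and 3R consisted mostly of A and T. ATATTAA was in 12.3% of those members and 2.63% of 16407 candidates (odds ratio 5.17, p = 8.49e-10 by Fisher's exact test, adjusted over 10 words), and TAATATA in 8.18% against 1.87% (odds ratio 4.69, adjusted p = 1.08e-06 by Fisher's exact test). In all 9 of 10 words passed, and ATTAAAT did not (odds ratio 1.56, adjusted p = 0.0888 by Fisher's exact test). Words chosen and tested anew within the middle range of A and T content gave 0 of 10 by the adjusted Fisher's exact test, with 1 of the 10, GTTAAAA, at an unadjusted p of 0.0154. These words were tested on 107 members only, so that the smaller number and the narrower A and T content cannot be told apart. TAATATA, chosen both times, was in 7.48% against 3.72% there (odds ratio 2.09, adjusted p = 0.324 by Fisher's exact test).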

How the data were processed

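Peak lists on dm6 were analysed as deposited, 1 thresholded and 1 ranked list each for both replicates together, for a conservative version and for either replicate. All were made with IDR, per the deposited notes. Aligner, peak caller, versions, read depth and the reference of the signal values are not given in the sources used here. Signal values are the authors' own and were tested only within a list. Replicate values from separate lists were set side by side as a description. The deposited IDR score is capped at 1000, and the deposited −log10 of the global IDR at 5. In each of the 4 ranked lists 8 further columns hold per-sample values that name no sample, and these were left unused.

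Summits were classed by the Ensembl annotation (release 115, same assembly), without transposable element genes. Replicate values are the highest signal of an overlapping ranked peak (at least 1 base), so that overlapping members can share them. Shares were compared by two-sided Fisher's exact tests at 0.05 (scipy 1.17.1, Python 3.11.15) with Benjamini-Hochberg adjustment and exact (Clopper-Pearson) 95% intervals. The tests were tested on simulated data drawn from candidates. Flanks are windows of equal length centred 500 bp away.

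Genes named are the hosts of the 20 strongest members, the 5 genes with most members, up to 3 hosts per list and the neighbours of the distance limit. The result of 1 gene list is not reported here. Sequences are RefSeq dm6, from the strongest 5 members, and the strongest 3 with a core, outside 2R. CG8745 as a contrast, CG12535, CG32795, Myc, CHES-1-like, EcR, pnt, crp and the weak overlapping members were picked after their values were seen. The members, gene lists and motifs were chosen with earlier results of these data known. Alternatives covered the other lists, stricter IDR, distance, annotation, windows, backgrounds, denominators and overlapping peaks.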

Additional observations from a re-analysis of the deposited data

How the results depend on the processing

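Of 146 alternative values, 114 kept their direction and their side of the threshold or moved little. The first-intron share, the rise in A and T and the weaker signal than at promoters did so under every alternative run for them. Alternatives chosen after seeing the data were the 3 other denominators, the distance ranges, the stricter definition of a first intron, the numbers of ranked peaks, the words, motifs and chromosomes under other lists, the addition of 21 passing distal intronic candidates that the main list lacks, and the removal of the weaker of overlapping peaks. Where a value moved, the cause was not tested unless fewer peaks were tested by construction.

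The number of distal intronic peaks was 264 to 310 with 1 replicate left out, 254 at an IDR of at most 0.001 and 279 beyond 5000 bp. The odds ratio of the distal intronic share turned from 0.521 to 1.11 outside promoters, 2.44 over 2000 bp from a start and 1.71 there outside exons. A signal above the list median, against start-proximal intronic peaks, had odds ratios of 0.746 to 0.857 with 1 replicate left out, 0.715 at the stricter IDR, 0.783 with protein-coding transcripts only and 0.780 without the weaker of overlapping peaks, none past the threshold. Support by both replicates lost its call at the stricter IDR, with 0.728 against promoter peaks and 0.715 against start-proximal intronic peaks. The CACTGTG core had odds ratios of 1.13 to 1.92 with 1 replicate left out, 1.97 at the stricter IDR and 2.12 at middle A and T content, all not past the threshold. Chromosomes that passed were 2 with either replicate left out, 2 at the stricter IDR and 1 without the weaker of overlapping peaks. At middle A and T content 0 words and 1 motif passed. For genes with 4 to 10 ranked peaks, the promoter peak had an odds ratio of 1.11.

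No paired analysis was possible because there was 1 group. Read depth is unknown, no control was analysed here, and the members in neither replicate's own list had the lowest median signal.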
